A study of Homo sapiens with 8 samples.

Results

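The transcripts described here are those of 9 transcription factors of the immediate-early response. They are the Fos family genes FOS, FOSB, FOSL1 and FOSL2, the Jun family genes JUN, JUNB and JUND, and EGR1 and ATF3. Their probes were found by the RefSeq accession that the array design gives for each probe, which led to 12 of 42405 non-control probes and to 9 of 20249 genes with a symbol. Each gene had 1 probe except ATF3, which had 4. No measured value was used to find the probes, but the 9 genes were chosen with earlier results of these data known.

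Activator protein 1 (AP-1) is a dimer of basic leucine zipper (bZIP) proteins. Jun proteins pair with each other or with Fos proteins, whereas Fos proteins bind DNA only with a partner, and ATF3 can pair with Jun proteins. EGR1 is a zinc finger factor that is induced together with FOS by growth factor and stress signals. Several of these mRNAs are made in a short burst and decay rapidly, in part through AU-rich elements in their tails. KHSRP encodes an RNA-binding protein that binds AU-rich elements, recruits decay enzymes and takes part in microRNA maturation, and in squamous epithelium AP-1 controls growth and keratinocyte differentiation genes.

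The cells were KYSE850, an established human cell line derived from an esophageal squamous cell carcinoma, and mRNA was read on 8 Agilent arrays with a single dye. Cells on 4 arrays had received control siRNA and cells on 4 arrays KHSRP siRNA, a short RNA that lowers the matching mRNA. No other treatment, stimulus or time point is given, the array labels do not say which KHSRP siRNA was used on which array, and all samples are of a single cell line. The labels do not say that replicates came from separate cultures, so the p-values measure the spread between these samples, which may be technical.

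Levels are log2 processed signals minus the 75th percentile of the array, so that 0 stands for that percentile. Differences between groups were taken within a probe, and a probe's brightness does not rank genes by mRNA amount. A probe was called when its adjusted p in limma was under 0.05 over 18761 tested probes. KHSRP itself was lower by 3.37 on the log2 scale at its brighter probe (SE 0.16, limma adjusted p = 5.95e-05), and all 4 KHSRP siRNA arrays lay below all 4 control siRNA arrays. All 10 squamous cell markers were tested, among them KRT5 and TP63, whereas none of 4 endothelial markers and 1 of 5 fibroblast markers (COL1A1) passed the filter. Of 4 leukocyte markers, CD68 and CD14 passed, and PTPRC and CD3E were well above background on only 2 or 3 arrays of a group.

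The arrays differed among themselves in a way that crossed the groups. In the authors' matrix of processed values, the columns of KHSRP siRNA arrays 3 and 4 hold the scanner values of each other, so the matrix pairs control siRNA 3 with KHSRP siRNA 4 and control siRNA 4 with KHSRP siRNA 3. With these numbers, the deviations of paired arrays from their group means correlated at 0.52, 0.43, 0.83 and 0.84 across probes. With the numbers of the scanner files, the last 2 pairs correlated at -0.67 and -0.64. Over all tested probes a median of 64.5% of the variance lay between the matrix pairs and 14.7% between the groups. As there are more pairs than groups, a larger share lies between pairs even where arrays differ at random. What the shared numbers stand for is not given in the labels, and comparisons are therefore given without a block and, where it changes a call, with the matrix number as a block.

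The comparison of KHSRP siRNA with control siRNA asked which mRNAs change when KHSRP is lowered. None of the 9 genes was called without a block in limma, beside 5.54% of all tested probes. At an unadjusted p under 0.05 there was 1, FOSB, and the methods' t-test gave 0. For none of the 9 were the groups free of overlap, beside 14.8% of probes. FOSB showed the widest difference, 1.94-fold higher with KHSRP siRNA, and was the gene called when the matrix number was a block. The other 8 genes lay within 1.25-fold of the control level. By sign, 6 genes were higher and 3 were lower, with a median log2 difference of 0.06, against 0.0058 over 12125 tested genes, of which 50.9% were higher. The sign count depended on scaling, since 4 of 9 genes were higher when arrays were scaled to their median, and it was 3 of 9 without control siRNA array 3. The median absolute log2 difference was 0.13 among the 9 genes and 0.20 among all tested genes. With the matrix number as a block, 1 of 9 genes was called beside 30.1% of probes, and 2 of 9 had the same sign in all 4 pairs beside 50.7% of probes.

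**Figure D1:**
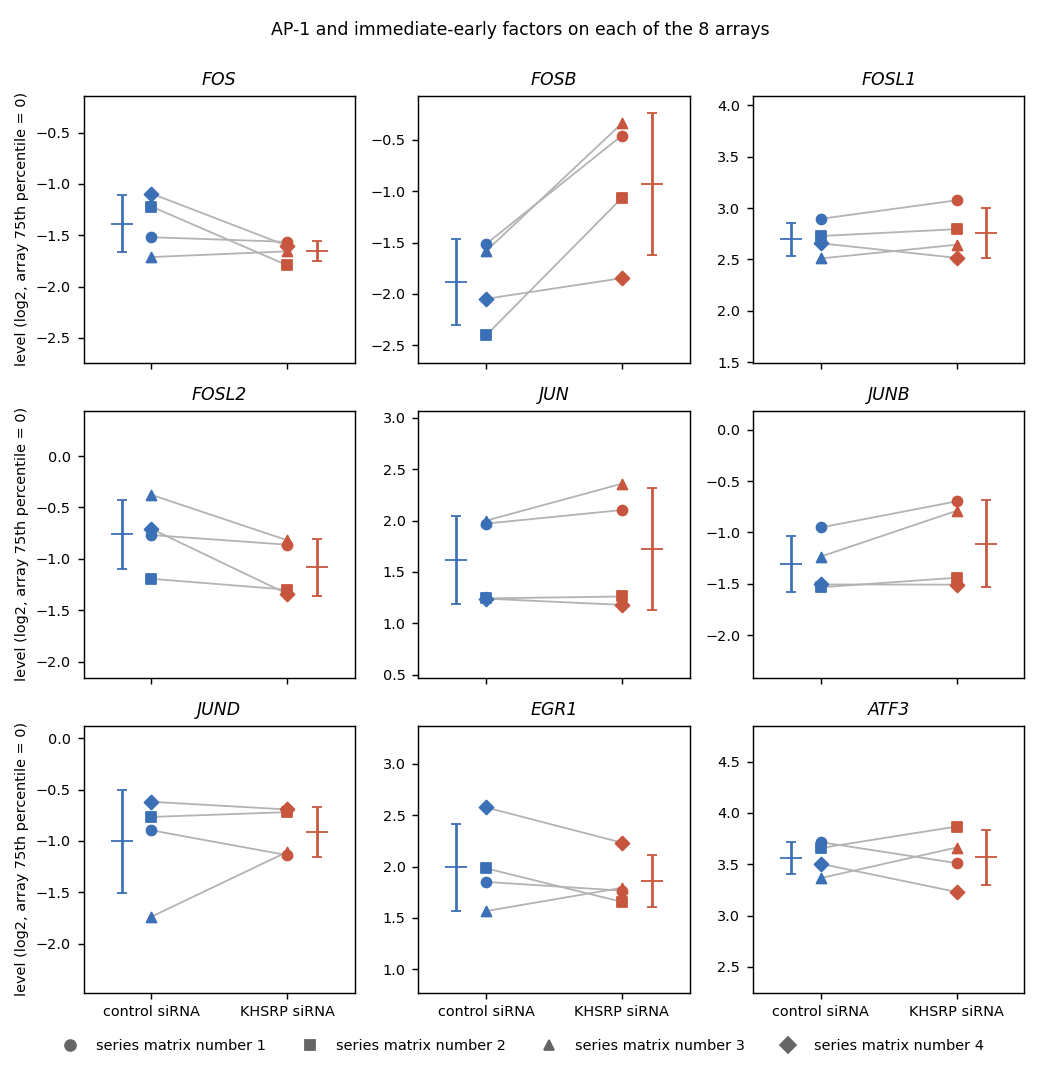
Level of each gene on each array (log2 processed signal, array 75th percentile = 0) with control siRNA (blue) and KHSRP siRNA (red); lines join arrays with the same series matrix number, and the outer bars give the group mean and SD (n = 4). Each panel spans the same log2 range. FOSB is higher with KHSRP siRNA along all 4 lines, whereas the JUN values lie in separate bands, from 1.97 to 2.36 and from 1.18 to 1.26, that each hold arrays of both groups.

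FOS, the founding member of the Fos family and a partner of Jun proteins, had no called difference. Its levels were -1.52, -1.22, -1.71 and -1.09 on control siRNA arrays 1 to 4 and -1.56, -1.79, -1.60 and -1.66 on KHSRP siRNA arrays 1 to 4. The KHSRP siRNA arrays lay close together, array 2 below every control array and the other 3 inside the control range. The difference was -0.27 (SE 0.15, 95% confidence interval -0.62 to 0.08, limma adjusted p = 0.404), so that the interval reached from 0.651 to 1.06 times the control level. Within slides, which held replicates 1 and 2 or replicates 3 and 4 of both groups, it was -0.31 and -0.23.

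FOSB encodes a Fos protein that shares the bZIP domain of FOS and has a shorter splice form without the transactivating end. Its levels were -1.51, -2.40, -1.58 and -2.05 on control siRNA arrays 1 to 4 and -0.46, -1.07, -1.85 and -0.34 on KHSRP siRNA arrays 1 to 4. KHSRP siRNA arrays 1, 2 and 4 lay above every control array, and KHSRP siRNA array 3 lay within the control range. The difference was 0.96 (SE 0.35, interval 0.16 to 1.76, unadjusted p = 0.0242, limma adjusted p = 0.169), or 1.94-fold with an interval of 1.12 to 3.38-fold. With normexp background correction the difference was 0.42 (limma adjusted p = 0.168). An exact two-sided permutation test over the arrays gave p = 0.0857, where 0.0286 is the smallest that 4 arrays against 4 allow. The difference was 1.20 among the arrays of one slide and 0.72 among those of the other.

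The call on FOSB depended on how the arrays were matched. In the matrix pairs, FOSB was higher with KHSRP siRNA by 1.05, 1.34, 1.24 and 0.20, and the block by pair gave SE 0.20, an interval of 0.46 to 1.45 and a limma adjusted p of 0.0189. With the numbers of the scanner files as the block, the limma adjusted p was 0.267. Without KHSRP siRNA array 3, the difference was 1.26 with a limma adjusted p of 0.048 and no block. The processed signal of this probe ran from 22.1 to 80.1 intensity units, while the 75th percentile lay between 87.7 and 117 on the arrays. It was well above background on all 8 arrays by the scanner's criterion.

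FOSL1 and FOSL2 encode the Fos proteins FRA1 and FRA2, which lack the strong transactivating end of FOS. FOSL1 had levels of 2.90, 2.73, 2.51 and 2.66 on control siRNA arrays 1 to 4 and 3.08, 2.79, 2.52 and 2.64 on KHSRP siRNA arrays 1 to 4. All 8 values lay within 0.57 of each other, and the difference was 0.06 (SE 0.15, interval -0.29 to 0.40, limma adjusted p = 0.903). FOSL2 had levels of -0.77, -1.19, -0.38 and -0.71 on control siRNA arrays 1 to 4 and -0.86, -1.30, -1.34 and -0.82 on KHSRP siRNA arrays 1 to 4. It was lower in 4 of 4 matrix pairs, but the groups overlapped and the difference of -0.32 was not called without a block (SE 0.20, limma adjusted p = 0.462). With the matrix block, the unadjusted p of FOSL2 was 0.0325 and the limma adjusted p 0.085. Its difference was -0.10 on one slide and -0.54 on the other.

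**Figure D2:**
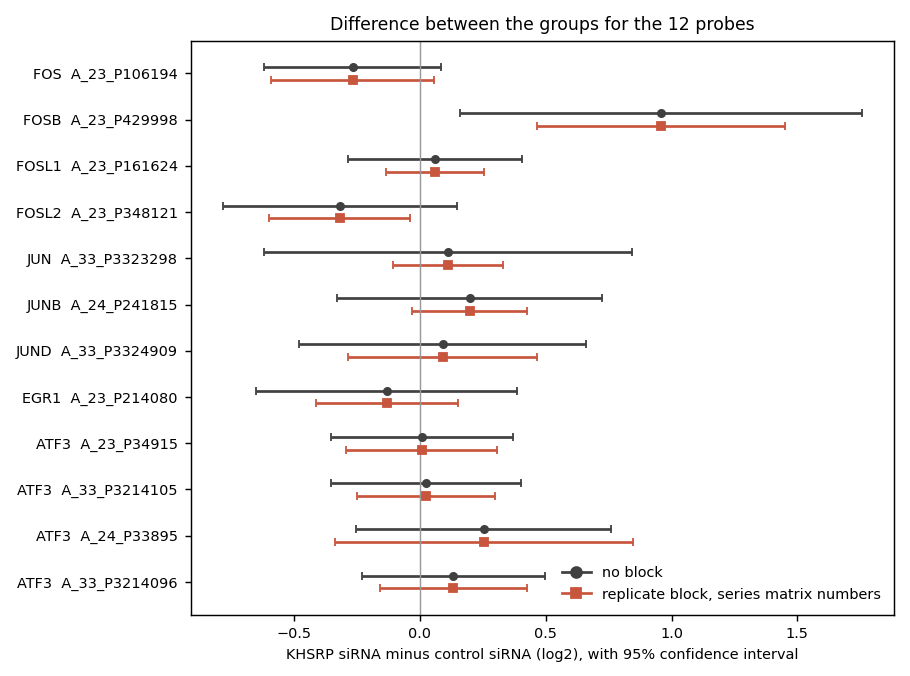
Difference between KHSRP siRNA and control siRNA (log2, horizontal axis) with its 95% confidence interval for the 12 probes, without a block (circles) and with the series matrix number as a block (squares); n = 4 arrays a group. The FOSB interval lies above 0 in both fits, from 0.16 to 1.76 and from 0.46 to 1.45, and the 4 ATF3 probes all span 0.

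JUN, the partner shared by most AP-1 dimers, had the largest share of variance between the matrix pairs of the 9 genes. Its levels were 1.97, 1.24, 1.9998 and 1.24 on control siRNA arrays 1 to 4 and 2.10, 1.26, 1.18 and 2.36 on KHSRP siRNA arrays 1 to 4. Control siRNA arrays 1 and 3 and KHSRP siRNA arrays 1 and 4 lay between 1.97 and 2.36, and the other 4 arrays between 1.18 and 1.26. Of the variance of JUN, 95.4% lay between the matrix pairs and 1.54% between the groups. The difference between the groups was 0.11, with SE 0.32 without a block and 0.09 with it (limma adjusted p = 0.915 and 0.382). The blocked interval of -0.11 to 0.33 reached from 0.928 to 1.26 times the control level.

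JUNB, a Jun protein that often restrains JUN activity, followed a like order over the arrays. Its levels were -0.95, -1.53, -1.23 and -1.51 on control siRNA arrays 1 to 4 and -0.70, -1.44, -1.51 and -0.79 on KHSRP siRNA arrays 1 to 4. KHSRP siRNA arrays 1 and 4 were the highest and control siRNA array 1 came next. The difference was 0.20 (SE 0.23, limma adjusted p = 0.736), and 83.9% of the variance lay between the pairs. JUND, the Jun gene that is usually expressed without a stimulus, had levels of -0.90, -0.77, -1.74 and -0.62 on control siRNA arrays 1 to 4 and -1.14, -0.72, -0.69 and -1.11 on KHSRP siRNA arrays 1 to 4. The lowest value was that of control siRNA array 3, and the difference was 0.09 (SE 0.25, interval -0.48 to 0.66, limma adjusted p = 0.911). Differences within slides had opposite signs for JUND, at -0.10 and 0.28.

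Several marker genes divided the arrays as JUN did, in either direction. KRT5, a keratin of basal squamous cells, had levels of 5.84, 4.30, 5.84 and 3.11 on control siRNA arrays 1 to 4 and 5.92, 4.46, 2.92 and 5.98 on KHSRP siRNA arrays 1 to 4. The 4 arrays with the higher JUN levels were also the 4 with the higher KRT5 levels. The same held for 7 of 10 squamous markers, which were KRT5, KRT14, KRT6A, KRT17, TP63, SOX2 and DSG3. How many of all tested genes divide the arrays in this way was not counted, so the split does not set these markers apart. Over all tested probes a median of 64.5% of the variance lay between the matrix pairs. PERP and CDH1 were mixed, and EPCAM ran the other way, from 3.66 to 4.20 on the 4 arrays with high JUN and from 4.33 to 4.71 on the others. Of the leukocyte markers, CD68 was also higher on the 4 arrays with high JUN (1.52 to 2.10 against -0.43 to 0.81), and CD14 was mixed. The fibroblast marker COL1A1 was lower on them (-2.52 to -2.001 against -1.52 to -1.14). The linear levels summed over the 10 squamous markers ran from 6.75 to 8.38 with control siRNA and from 6.74 to 8.65 with KHSRP siRNA on the log2 scale, so that the ranges of the groups overlapped. In bulk RNA, a changed mix of cells and a changed amount of RNA per cell cannot be told apart. The part of these marker levels in the JUN values was not tested.

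**Figure D3:**
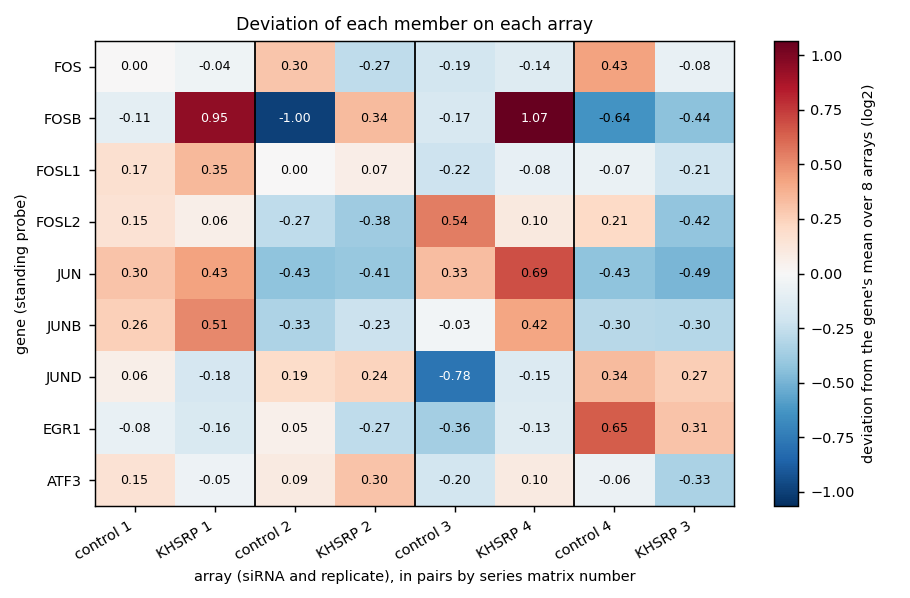
Deviation of each gene from its mean over the 8 arrays (log2, colour and printed value), with genes in rows and arrays in columns, ordered in pairs by series matrix number. JUN and JUNB are above their means on both arrays of the pair control siRNA 1 and KHSRP siRNA 1, and the FOSB values of KHSRP siRNA arrays 1 and 4 stand at 0.95 and 1.07.

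EGR1, which binds GC-rich promoter sites and is held back by NAB1 and NAB2, had levels of 1.85, 1.98, 1.57 and 2.58 on control siRNA arrays 1 to 4 and 1.77, 1.66, 2.23 and 1.79 on KHSRP siRNA arrays 1 to 4. Control siRNA array 4 was the highest and control siRNA array 3 the lowest, so that the KHSRP siRNA arrays lay wholly inside the control range. The difference was -0.13 (SE 0.23, interval -0.65 to 0.38, limma adjusted p = 0.841). EGR1 and JUN did not share the order of the arrays, as the pair of control siRNA 4 and KHSRP siRNA 3 held the highest EGR1 values and the lowest JUN values. Of the EGR1 variance, 81.7% lay between the pairs.

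ATF3, a stress-induced bZIP factor that can repress transcription, was measured by 4 probes. The brightest had levels of 3.71, 3.66, 3.37 and 3.50 on control siRNA arrays 1 to 4 and 3.51, 3.87, 3.23 and 3.66 on KHSRP siRNA arrays 1 to 4. Its difference was 0.01 (SE 0.16, interval -0.35 to 0.37, limma adjusted p = 0.990), and 0.04% of its variance lay between the groups. The other 3 probes differed by 0.02, 0.25 and 0.13, and none was called. Processed signals of the brightest probe ran from 899 to 1612 and those of the dimmest did not exceed 22.0 intensity units.

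Promoter sequence is shown where a member's own start region holds a motif of AP-1-like factors or of serum response factor, through which early-response genes are known to be switched on. RefSeq windows of GRCh38.p14 matched 8 of the 9 genes (ATF3 with 2 start sites, and none for FOSL1), and the 250 bases before each start were searched on both strands. JUN and ATF3 hold TGACATCA, JUND holds TGACGTCA, the cAMP response element, and EGR1 holds 2 CArG boxes, the binding motif of serum response factor. Each line runs 5′ to 3′ on the strand of the gene, with the motif in capitals.
JUN, chr1:58784097-58784124, minus strand: ggccttggggTGACATCAtgggctattt
JUND, chr19:18281805-18281832, minus strand: gccgcccccaTGACGTCAacccacaagg
ATF3, chr1:212565274-212565301, plus strand: acctatgataTGACATCAtatggccact
EGR1, chr5:138465364-138465393, plus strand: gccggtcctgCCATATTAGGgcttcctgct
EGR1, chr5:138465386-138465415, plus strand: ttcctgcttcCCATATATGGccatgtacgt

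The JUN motif lies 67 to 60 bases before the start, and those of EGR1 105 to 96 and 83 to 74 bases before it. TGACNTCA, which covers both octamers, was found in 3 of 9 windows of these genes and in 6.87% of 35116 promoter windows of the same length. The CArG box was found in 1 of 9 windows and in 1.16% of all windows. TGACTCA, the classical AP-1 site, was in none of the 9 windows and in 4.20% of all windows. The zinc finger motif GCGNGGGCG was in 1 of 9 windows, that of EGR1, and in 8.41% of all windows. A match describes these letters in the window and does not show binding.

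The other bZIP factors, which pair with AP-1 proteins or bind like motifs, gave 1 called gene of 24 tested, beside 5.54% of all tested probes. In this and the following lists, a gene was counted by its brightest tested probe. The brightest CREM probe differed by 0.16 and was not called, but its other tested probe was called, at 0.71. CREB1, a factor of the cAMP response element, had levels of -1.09, -1.09, -1.26 and -1.27 on control siRNA arrays 1 to 4 and -1.76, -1.91, -1.87 and -2.70 on KHSRP siRNA arrays 1 to 4. The groups did not overlap, and the difference was -0.88 (SE 0.21, limma adjusted p = 0.045). The call was lost when any array other than KHSRP siRNA array 4 was left out, and the difference was -0.31 with normexp. Of the 24, 14 were higher, with a median of 0.09, and the brightest, ATF4, differed by 0.01. With the matrix block 11 of 24 were called, 7 higher and 4 lower, beside 30.1% of probes. Among them, chosen after its values were seen, JDP2, which encodes a repressor that pairs with Jun proteins, was higher by 1.12 (limma adjusted p = 0.001 with the block and 0.116 without it).

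Among other early-response regulators, 1 of 20 tested genes was called, beside 5.54% of probes. KLF4, a Krüppel-like factor of epithelial differentiation, had levels of -0.38, -0.34, -0.56 and -0.66 on control siRNA arrays 1 to 4 and 0.24, 0.03, -0.14 and 0.26 on KHSRP siRNA arrays 1 to 4. The groups did not overlap, and the difference was 0.58 (SE 0.14, limma adjusted p = 0.045), a call kept only without KHSRP siRNA array 3 among the 8 fits that left out an array. With normexp it was 0.34 (limma adjusted p = 0.126). EGR3, EGR4 and NR4A1, which are induced with EGR1, were not well above background on any array. NR4A2 and NR4A3 also failed the filter and were not tested. NR4A2 was well above background on 3 control siRNA and 3 KHSRP siRNA arrays, and NR4A3 on 3 control siRNA and 0 KHSRP siRNA arrays. The brightest gene, IER2, differed by -0.02. With the matrix block 10 of 20 were called, 4 higher and 6 lower, beside 30.1% of probes. They include, chosen after their values were seen, MYC at 0.56 (limma adjusted p = 0.004 with the block), SRF at -0.78 (0.011) and ID2 at -1.57 (0.002). NAB1 and NAB2 were called in opposite directions, at 0.65 (limma adjusted p = 0.007 with the block) and -0.32 (0.024). The other tested probe of NAB1 differed by 0.18. The SRF probe was well above background on 4 control siRNA arrays but on only 2 KHSRP siRNA arrays. It therefore passed the filter only through the control group, where it was higher.

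Of the genes upstream of AP-1, 3 of 30 tested were called, 1 higher and 2 lower, beside 5.54% of probes. MAPK14, the stress kinase p38 alpha, had levels of -0.13, -0.14, -0.31 and -0.19 on control siRNA arrays 1 to 4 and -0.79, -0.88, -0.93 and -1.16 on KHSRP siRNA arrays 1 to 4. Its groups did not overlap, the difference was -0.75 (SE 0.12, limma adjusted p = 0.010), and it was called in all 8 fits that left out an array, with -0.42 under normexp. MEF2A, a factor that binds the JUN promoter, differed by -0.82 (SE 0.16, limma adjusted p = 0.021) and was called in 3 of those 8 fits, those without KHSRP siRNA array 3 or 4 or without control siRNA array 1. DUSP1, a phosphatase that switches off MAP kinases and is itself an early-response gene, differed by 0.49 (SE 0.11, limma adjusted p = 0.034) and was called in none of the 8, nor with normexp at 0.29 (limma adjusted p = 0.056). MAP2K3, the brightest of the list and an activating kinase of p38, differed by 0.25 and was not called. The brightest ELK4 probe differed by -0.40 and was not called without a block, but its other tested probe was called, at -0.53. The matrix block called 11 of 30, 5 higher and 6 lower, beside 30.1% of probes.

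Among genes that AP-1 or EGR1 is known to regulate, 2 of 24 tested were called, in opposite directions, beside 5.54% of probes. MMP9, a matrix metalloproteinase, had levels of -1.32, -1.63, -1.05 and -1.68 on control siRNA arrays 1 to 4 and -2.50, -2.31, -2.71 and -2.79 on KHSRP siRNA arrays 1 to 4. The groups did not overlap, the difference was -1.16 (SE 0.18, limma adjusted p = 0.009), and it was called in all 8 fits that left out an array. With normexp the MMP9 difference was -0.29 and the call was lost (limma adjusted p = 0.095). The MMP9 probe was well above background on 4 control siRNA arrays and on 3 KHSRP siRNA arrays. It therefore passed the filter only through the control group, where it was higher. HBEGF, a ligand of the epidermal growth factor receptor, differed by 0.91 (SE 0.22, limma adjusted p = 0.048), and of the 8 fits that left out an array, it was called only without KHSRP siRNA array 3. With the matrix block HBEGF was called (limma adjusted p = 0.013), and with normexp it was at 0.55 and not called (0.086). MMP3, MMP10, MMP13 and CXCL8 were not well above background on any array. HMGA1, the brightest, differed by 0.07, and the median over the 24 was 0.02. The brightest HMGA2 probe differed by 0.74 and was not called without a block, but 1 of the 3 tested HMGA2 probes was. The matrix block called 7 of 24, 5 higher and 2 lower, beside 30.1% of probes.

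**Figure D4:**
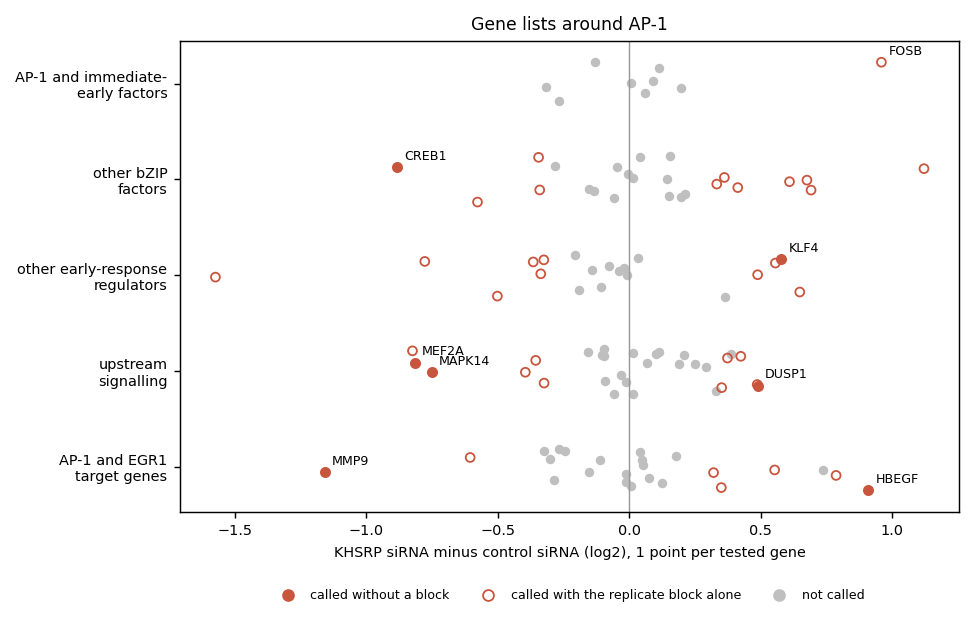
Difference between KHSRP siRNA and control siRNA (log2, horizontal axis) for each tested gene of the 9 factors and of 4 lists around them; vertical spread within a row has no meaning. Filled points were called without a block, open red points with the series matrix number as a block, and grey points in neither fit. FOSB at 0.96 stands apart from the other 8 factors. CREB1, MAPK14, MEF2A and MMP9 are the genes below 0 that were called without a block at their brightest tested probe.

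The genes most like FOSB over the arrays were looked up because FOSB had the widest range of the 9 genes, 2.06 on the log2 scale. Of 12116 other genes, CEACAM1 had the highest Pearson correlation with FOSB over the 8 arrays, at 0.988, and a Spearman correlation of 0.929. PRODH and S100P followed, at 0.984 and 0.983, each with a Spearman correlation of 0.976. These values are the highest of many and describe only the levels on the same 8 arrays. CEACAM1 encodes a cell adhesion molecule, PRODH a mitochondrial enzyme of proline breakdown and S100P a calcium-binding protein. Their differences between the groups were 1.14, 1.14 and 0.96, and like FOSB none was called without a block (limma adjusted p = 0.076, 0.118 and 0.174). All 3 were called with the matrix block, as FOSB was (limma adjusted p = 0.0085, 0.0051 and 0.0090). As the 3 genes were picked for their likeness to FOSB over these arrays, their differences and calls repeat those of FOSB and add no support.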

How the data were processed

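RNA of 8 KYSE850 samples was labelled with Cy3 and hybridised to 8 arrays, grouped by their labels. The authors extracted spots with Agilent Feature Extraction (11.5.1.1 per the file headers, 12.6 in the submitters' processing notes), and the deposited processed signal is a linear intensity, background-subtracted and detrended but not scaled between arrays. The authors also deposited a series matrix of log2 values, attributed to GeneSpring, whose centring is not given in the sources used here. Its column medians ran from -0.25 to 0.22, and the columns named KHSRP siRNA 3 and 4 are exchanged relative to the scanner files (r = 1.00 crossed, -0.14 by name), so scanner files were used for all comparisons and set the array numbers.

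Control spots and outlier-marked spots were left out, log2 signals were averaged per probe, and each array's 75th percentile was subtracted. Probes were named through RefSeq accessions (GRCh38.p14), with 27241 of 42405 having 1 symbol, none several and 15164 none. Tests were limited to probes with a share of 0.5 or more of spots well above background on all 4 arrays of either group, and the brightest tested probe stood for a gene. Between 45.1% and 49.4% of probes were well above background on an array, no spot was saturated, and the number of arrays limits the precision. The group comparison used lmFit and eBayes of limma 3.58.1 under R 4.3.3 (two-sided, Benjamini-Hochberg over 18761 probes). The fit was tested on simulated data with independent noise on each array, which left out the likeness of paired arrays. On the measured values the fit called 1039 probes (360 higher, 679 lower), and 5644 with the series matrix number as a replicate block. That number is the one carried by the series matrix column whose values are those of the array. All 4 pairs by it correlated above 0.1 in their deviations, and each array matched its partner best. Figures and counts used Python 3.11.15.

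The 9 genes and the lists were chosen with earlier results of these data known. The text names every probe of the 9 genes and the 3 genes most like the member of widest range. Of each other list, it names every gene called without a block at its brightest tested probe, and the brightest gene. Alternatives covered scaling, normexp background correction (offset 50, on median spot brightness, chosen after seeing the data), the series matrix values, the probe filter, slide, replicate number, array weights, trend and robust variance, the methods' t-test, the mean over probes, and leaving out each array. Per the labels RNA was prepared with the RNeasy kit, whereas the study's methods name another reagent.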

Additional observations from a re-analysis of the deposited data

Results flagged for a closer look

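Of 34 groups of 4 arrays checked, 1 had a sample far from the others, where chance marks about 1 group in 20. The check covered the brightest probe of each of the 9 genes and probes of named genes around them. On KHSRP siRNA array 4, CREB1 was at -2.70, while the nearest of the other 3 KHSRP siRNA arrays was at -1.91. Without that array the difference between the groups was -0.67 (limma adjusted p = 0.0269), against -0.88 with it. No value of the brightest probes of the 9 genes was marked, and the dimmer ATF3 probes were not part of the check. On ATF3 probe A_33_P3214096, control siRNA array 3 was at -2.97, and the other control siRNA arrays lay between -2.46 and -2.38.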

How the results depend on the processing

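Over 24 alternatives, none of the 9 genes was called in 22. With the replicate block by series matrix numbers 1 was called, FOSB, and leaving out single arrays gave 0 to 1, FOSB again without KHSRP siRNA array 3. FOSB stayed higher in all 24 alternatives, from 0.42 (normexp) to 1.26, FOS and FOSL2 stayed lower and JUNB higher. Genes higher numbered 3 to 6 when single arrays were left out. Signs that turned belonged to differences near 0. With median scaling FOSL1 was at -0.015, the brightest ATF3 probe at -0.067 and ATF3 probe A_33_P3214105 at -0.049. With array weights these ATF3 probes were at -0.020 and -0.0063, and with normexp the brightest was at -0.050. On slide A alone JUND was at -0.098 and ATF3 probe A_33_P3214096 at -0.054, and on slide B alone FOSL1 was at -0.0045. Leaving out single arrays gave ranges of -0.047 to 0.14 for FOSL1, -0.10 to 0.29 for JUN, -0.15 to 0.22 for JUND, -0.27 to 0.062 for EGR1, -0.092 to 0.12 for the brightest ATF3 probe, -0.079 to 0.14 for A_33_P3214105 and -0.0049 to 0.19 for A_33_P3214096. KHSRP was lower by 3.37 on each slide, with limma adjusted p = 0.190 on slide A and 0.777 on slide B, which hold 2 arrays a group.

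Counts of called genes in the lists changed more. For other bZIP factors (1 called) the count was 0 with quantile normalization, median scaling, no filter on dim probes, either slide alone, the block by scanner file numbers, and trend with robust variance, 2 with the mean of probes, and 11 with the block by series matrix numbers. For other early-response regulators (1 called) it was 0 with median scaling, normexp, no filter, either slide alone, the block by scanner file numbers, trend with robust variance and the methods' t-test, 2 with quantile normalization, 3 with array weights and 10 with the matrix block. For upstream genes (3 called) it was 1 with median scaling, 0 with no filter, either slide alone or the scanner block, 5 with the methods' t-test and 11 with the matrix block. For target genes (2 called) it was 1 with quantile normalization, median scaling, the percentile of detected probes, no filter, the filter on all 8 arrays and the methods' t-test, 0 with normexp, either slide alone or the scanner block, and 7 with the matrix block. Leaving out single arrays gave 0 to 1, 0 to 1, 1 to 2 and 1 to 2 called in these lists. Over all probes, where 1039 were called, the count was 570 with median scaling, 319 with no filter, 0 on either slide alone, 156 with the scanner block, 5644 with the matrix block and 489 to 766 without single arrays. The cause of these changes was not tested. Fewer samples entered the fits on a single slide and those that left out an array. The methods' t-test, at its threshold of 0.05, called none of the 9 genes unadjusted or after Benjamini-Hochberg, and 3710 and 1081 probes.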
